A study of Mus musculus with 6 samples.

Results

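Immunoglobulin heavy and kappa variable segments are the genes named Ighv and Igkv, and 199 of the 30142 genes measured here carried such a name: 113 heavy and 86 kappa segments. They were taken by symbol from the probe sets that the platform annotation gives exactly 1 gene symbol, and each of them had 1 probe set. RNA of 6 late-stage ID8-VEGF tumours was measured, 1 array per tumour, from 3 mice named C1M3, C1M5 and C2M3. ID8 is a line derived from mouse ovarian surface epithelium, here made to produce VEGF, a growth factor of blood vessels, and the cells were placed under the bursa that surrounds the ovary. A primary and a metastatic tumour were taken from every mouse. The primary group and the metastatic group held 3 tumours each, and all of them carried the same tumour line. The strain, age and any treatment of the mice, the organ that held the metastasis and whether the primary tumour had been removed before it are not given in the labels. For the primary tumour of C2M3 the title and donor label name C2M3 and the source name gives C2M2; the donor label was followed.

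An antibody heavy chain is encoded by a variable, a diversity and a joining segment that a developing B cell joins in its DNA, followed by a constant region such as that of IgM or IgG. A kappa light chain is made in the same way without a diversity segment, and kappa serves most mouse antibodies. Each B cell and its offspring use 1 heavy and 1 light variable segment, and plasma cells, the antibody-secreting end stage, hold very large amounts of this RNA. Segment RNA in a piece of tissue is therefore widely read as a trace of B-lineage cells and of the segments they chose. Segments of a family resemble each other in sequence, so a probe set may also take up RNA of a relative. The levels of different probe sets have no common scale, and values are compared below between tumours for the same probe set. In whole tumours, more cells of a type and more RNA per cell cannot be told apart.

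Values are log2 intensities, and array medians over all genes lay between 4.90 and 5.15. A segment was taken as above background on an array where its value passed the 95th percentile of the 23 background probe sets of that array, a limit of 5.16 to 5.18. Only 3 tumours stood in each group, and this number limits the precision of every comparison. Tumours of 1 group came from different animals, while both tumours of a mouse share the animal. The macrophage markers were lower in the primary tumour of C1M3 (mean of 11 genes 6.35) than in the other 5 tumours (7.97 to 8.81).

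Most segments were detected in at least 1 tumour. Of the heavy segments 106 of 113 (93.8%) were above background on 1 or more arrays, 95 (84.1%) on 3 or more and 34 (30.1%) on all 6. The kappa segments gave 75 of 86 (87.2%), 61 (70.9%) and 25 (29.1%). Over all genes the shares were 54.1%, 47.9% and 41.1%. Both chains thus lay above the share of all genes for at least 1 array and below it for all 6. The highest background probe set of each array was a stricter limit. On 1 or more arrays 97 heavy (85.8%) and 62 kappa segments (72.1%) passed it, against 47.2% of all genes. The 95th percentile of the 5222 control probe sets named as negative was higher still, 8.04 to 8.79. On 1 or more arrays 43 heavy (38.1%) and 38 kappa segments (44.2%) passed it, against 19.7% of all genes. On 3 or more arrays 30 heavy (26.5%) and 25 kappa segments (29.1%) were above these negative controls, against 15.7% of all genes. On all 6 arrays 1 heavy and 0 kappa segments were, against 11.2% of all genes. The olfactory and vomeronasal receptor genes, 1717 genes of sensory neurons, served as a second background. Their 95th percentile was passed on 1 or more arrays by 103 heavy (91.2%) and 71 kappa segments (82.6%), against 55.3% of all genes.

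The 18 segments below background in every tumour were 7 heavy (Ighv1-16, Ighv1-24, Ighv1-81, Ighv8-2, Ighv13-1, Ighv15-2 and Ighv16-1) and 11 kappa (Igkv1-35, Igkv1-115, Igkv2-95-2, Igkv4-92, Igkv5-37, Igkv6-32, Igkv7-33, Igkv11-125, Igkv17-134, Igkv18-36 and Igkv20-101-2). They were listed because they fell below the limit. RefSeq types 10 of the 199 as variable segment pseudogenes, 3 heavy and 7 kappa. All 3 heavy pseudogenes and 4 of the 7 kappa pseudogenes were above background on at least 1 array. Igkv4-56, a kappa pseudogene, stood at 7.57 and 5.41 in the primary and metastatic tumour of C1M3, 9.32 and 9.67 in C1M5, and 8.30 and 8.94 in C2M3. Whether such a signal came from the pseudogene or from a related segment was not tested.

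The segments differed chiefly by mouse. In mouse C1M3, 48 heavy segments were above background in the primary and 41 in the metastatic tumour, against 91 to 99 in the 4 tumours of C1M5 and C2M3. The kappa counts were 40 and 29 in C1M3 against 57 to 71 in the others. The median heavy segment stood at 4.97 in the primary and 4.82 in the metastatic tumour of C1M3, both below the limit. C1M5 had 6.75 and 7.46, while C2M3 had 7.16 and 6.74. The median kappa segment followed the same order, with 5.02 and 4.72 in C1M3, 6.03 and 7.34 in C1M5 and 7.01 and 7.31 in C2M3. Above a log2 intensity of 10 stood 1 heavy and 0 kappa segments in each C1M3 tumour, against 11 to 19 heavy and 11 to 20 kappa segments in each other tumour. The 4 tumours of C1M5 and C2M3 overlapped with each other in these counts, and neither C1M3 tumour overlapped with them.

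**Figure D1:**
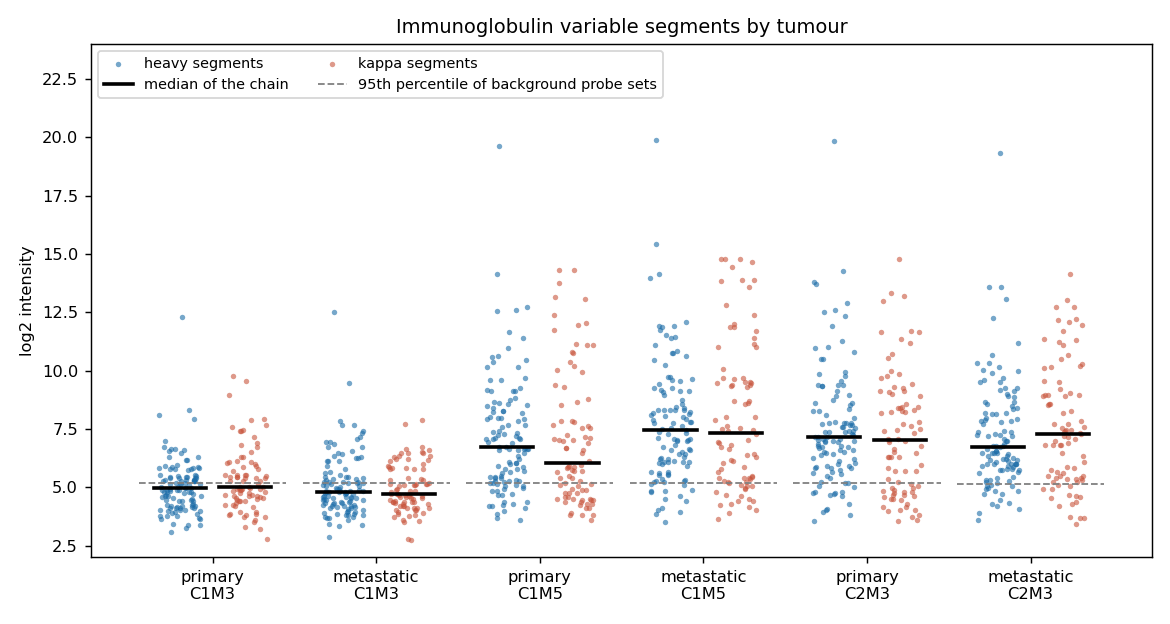
Log2 intensity of every heavy (113, blue) and kappa (86, red) segment in each of the 6 tumours, with the median of each chain as a black bar and the 95th percentile of the background probe sets as a dashed line. In both C1M3 tumours the medians (4.72 to 5.02) lie below the dashed line, and in the other 4 tumours they lie between 6.03 and 7.46.

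Both C1M3 tumours were below all 4 other tumours for 150 of the 199 segments (75.4%), 88 heavy and 62 kappa, where 4.60% of all genes showed this order. Both C1M5 tumours were above all others for 47 segments, 27 heavy and 20 kappa (5.63% of all genes), and both C2M3 tumours for 30, 16 heavy and 14 kappa (3.83%). Only 2 segments were above all others in both C1M3 tumours. The range over the 6 tumours was 5 log2 units or more for 50 segments (25.1%), against 0.518% of all genes. Heavy segments had a median range of 3.21 and kappa segments of 2.62, against 0.50 over all genes. At the narrow end was Igkv11-125, with a range of 0.14 and no tumour above background.

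**Figure D2:**
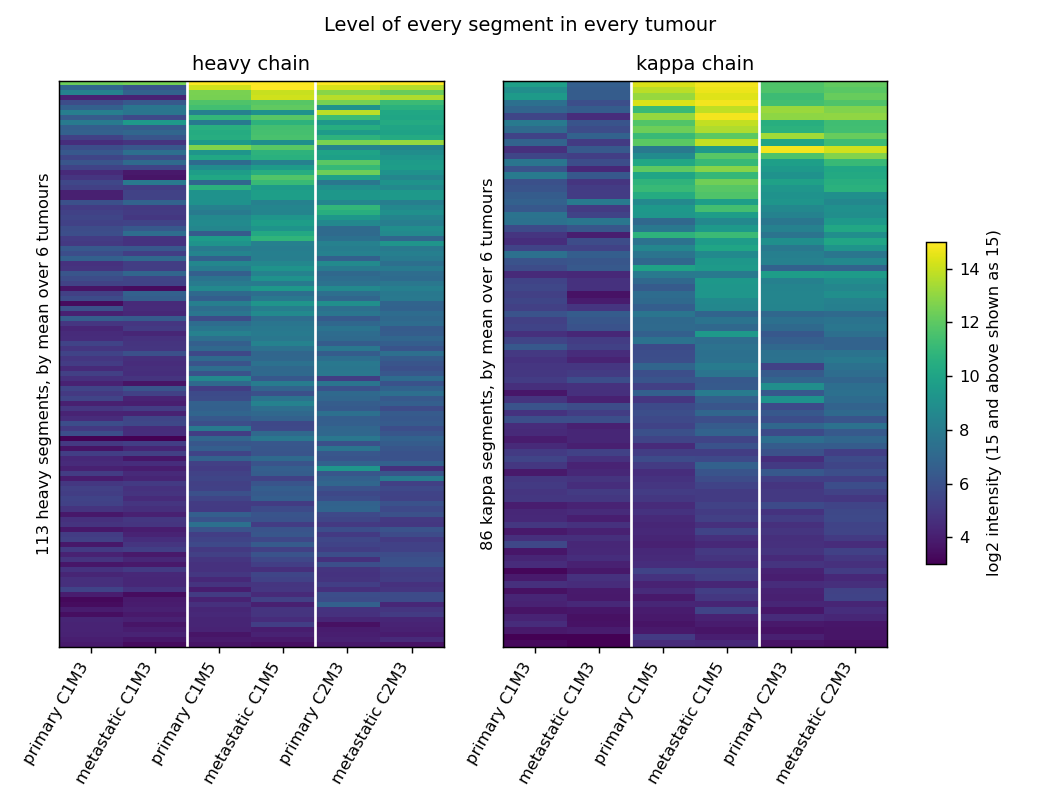
Log2 intensity of each segment (1 line each, heavy left, kappa right, ordered by the mean over 6 tumours) in each tumour (columns, white lines between mice), from dark (3) to yellow (15 and above). The pair of columns of C1M3 is dark along nearly the whole height, and 150 of 199 segments were lower in both C1M3 tumours than in the other 4.

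Among heavy segments, Ighv1-53 of the large Ighv1 family had values of 6.99 and 6.14 in the primary and metastatic tumour of C1M3, 14.13 and 15.42 in C1M5, and 14.25 and 13.60 in C2M3. Ighv1-11, of the same family, stood at 4.13 and 4.20 in C1M3, 12.54 and 14.15 in C1M5, and 13.70 and 13.58 in C2M3. Neither segment had any overlap between C1M3 and the other mice, and Ighv1-11 was below background in both C1M3 tumours. On means of the tumours of a mouse, Ighv1-11 was at least 287-fold higher in C1M5 and at least 353-fold higher in C2M3 than in C1M3, with C1M3 set at its background limit. Ighv1-5 had 8.30 and 6.75 in C1M3, 12.61 and 13.99 in C1M5, while C2M3 had 12.89 and 12.24. Ighv1-73 had 5.79 and 6.35 in C1M3, 11.67 and 11.90 in C1M5, while C2M3 had 12.52 and 11.18. Both again had C1M3 lowest in each of its tumours.

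Ighv1-82 (4.87 and 3.69 in C1M3, 10.16 and 11.75 in C1M5, 9.87 and 8.51 in C2M3) and Ighv1-76 (4.41 and 3.84, 9.68 and 10.45, 12.35 and 9.14 in the same order) were likewise below background in C1M3. The tumours of C2M3 differed for Ighv1-76, the metastatic by -3.21 log2 units from the primary. Ighv1-2, typed as a pseudogene by RefSeq, had values of 12.31 and 12.51 in C1M3, 19.64 and 19.87 in C1M5, and 19.85 and 19.34 in C2M3. In 3 of these tumours (both of C1M5 and the primary of C2M3) that value was the highest on the array, which 16 to 32 probe sets shared, so it gives only a lower limit there. Ighv1-62-2 and Ighv1-71 had the same 6 values and cannot be told apart.

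Among kappa segments, Igkv3-2 stood at 5.53 and 4.54 in the primary and metastatic tumour of C1M3, 13.09 and 14.77 in C1M5, and 12.98 and 13.01 in C2M3. Igkv3-10 stood at 6.92 and 6.47 in C1M3, 11.14 and 13.86 in C1M5, and 13.22 and 12.73 in C2M3. C1M3 was the lowest mouse for both, with no overlap. Igkv4-71 was less extreme, with 9.79 and 6.64 in C1M3, 14.32 and 14.77 in C1M5, and 11.68 and 12.10 in C2M3. Igkv4-54 (8.95 and 6.48, 13.76 and 14.67, 11.68 and 11.94) and Igkv4-63 (9.55 and 6.50, 13.15 and 14.42, 11.20 and 12.19) had the same order of mice, C1M5 above C2M3 above C1M3 in both tumours. Igkv6-25 had 5.52 and 5.20 in C1M3, 8.80 and 11.86 in C1M5, and 11.65 and 12.73 in C2M3. Igkv4-57 and Igkv4-55 ranged over 8.80 and 8.44 log2 units, with C1M3 lowest and C1M5 highest.

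The size of the difference between mice varied by family. The 25 Igkv4 segments were a median of 4.73 log2 units higher in C1M5 than in C1M3 and 3.64 higher in C2M3, and the 5 Igkv3 segments 3.93 and 3.49. The 61 Ighv1 segments were 2.84 and 2.23 higher. The 8 Ighv2 segments differed less between these mice (0.63 and 0.89), and 7 of them were above background in all 6 tumours. The 5 Igkv2 segments had medians of 0.14 and 0.21 in the same differences, but only 2 of them were above background in all 6 tumours. In C1M3, C1M5 and C2M3 the means of those 2 were 5.74, 7.33 and 7.49 (Igkv2-137) and 6.26, 7.28 and 7.08 (Igkv2-109). Of family tops with a smaller range, Ighv5-9 lay between 5.29 and 7.80, Igkv12-46 between 6.60 and 8.68, Igkv2-109 between 6.05 and 7.67 and Igkv1-88 between 5.33 and 7.52. Ighv8-12 stood at 4.97 and 4.77 in C1M3 and between 8.22 and 9.28 in the other 4 tumours.

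A comparison of mice was added after the data had been seen. It used limma with mouse and tissue as terms, its replicates were the tumours of 1 animal, and its p-values therefore speak of these 3 animals. At an adjusted p under 0.05 it called 0 members and 0% of all genes in each of the 3 pairs of mice. The smallest adjusted p of a member by limma was 0.246 for C1M5 against C1M3, 0.184 for C2M3 against C1M3 and 0.430 for C2M3 against C1M5. At an unadjusted p under 0.05, 123 members (72 heavy, 51 kappa) were higher in C1M5 than in C1M3, where 3.50% of all genes were, and 1 was lower (2.58% of all genes). Against C1M3, C2M3 had 123 higher members (71 heavy, 52 kappa; 2.74% of all genes) and 0 lower (3.96%). Both comparisons share the C1M3 tumours. The median difference was 2.01 for heavy and 1.67 for kappa segments in C1M5, and 2.08 and 1.74 in C2M3. The count for C2M3 was 73 when its primary tumour was left out and 79 when the metastatic tumour of C1M3 was. With a tumour left out, 1 mouse is represented by a lone tumour, which is assumed to vary like the others.

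With each array centred on its median over all genes, 19 members passed the adjusted threshold of limma in C1M5 against C1M3 (14 heavy and 5 kappa, adjusted p 0.0449 to 0.0490; 0.103% of all genes were called) and 3 in C2M3 against C1M3 (adjusted p 0.0428; 0.00995% of all genes). The 3 were Ighv1-2, Ighv9-3 and Igkv5-39. The smallest adjusted p on the values as deposited, 0.184, belonged to Igkv5-39, which stood at 4.42 and 4.38 in C1M3, 7.84 and 7.89 in C1M5, and 9.69 and 9.57 in C2M3. The tumours of a mouse differed there by at most 0.12 log2 units, and C1M3 was below background in both. C2M3 exceeded C1M3 by 5.22 (SE 0.08), at least 21.8-fold over the background limit.

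Between C1M5 and C2M3 the median difference (C2M3 minus C1M5) was -0.08 for heavy and 0.14 for kappa segments, and single segments differed by several log2 units in either direction. At an unadjusted p under 0.05 by limma, 16 members were higher in C2M3 (1.76% of all genes) and 16 lower (3.39%). Leaving out the primary tumour of C2M3 lowered the first count to 11, and leaving out the metastatic tumour of C1M5 raised it to 27. The second fell to 7 when C2M3 lacked its metastatic tumour and rose to 27 when C1M5 lacked its primary tumour. The second was 26 with centred arrays and 25 with array weights. Both tumours of C2M3 were above both of C1M5 by 2 log2 units or more for 2 segments, which were 2 of only 4 genes with this gap (0.0133% of all genes). Both tumours of C1M5 were above both of C2M3 by as much for 5 segments, of 37 genes (0.123%).

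Those above in C2M3 were Igkv8-30 and Ighv9-3. Igkv8-30 had 14.80 and 14.12 in the primary and metastatic tumour of C2M3, against 7.83 and 9.50 in C1M5 and 4.67 and 6.35 in C1M3. Ighv9-3 had 12.59 and 13.09 in C2M3, 9.59 and 8.97 in C1M5, and 4.57 and 4.80 in C1M3. Each segment thus separated all 3 mice with no overlap. The difference C2M3 minus C1M5 was 5.80 (SE 0.78; limma adjusted p 0.762) for Igkv8-30 and 3.56 (SE 0.34; limma adjusted p 0.724) for Ighv9-3.

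Those above in C1M5 were Ighv1-15, Ighv1-23, Igkv16-104, Igkv4-59 and Igkv4-71. Ighv1-15 had 12.72 and 11.94 in C1M5, 8.35 and 8.35 in C2M3, and 5.85 and 6.26 in C1M3. Igkv16-104, the only Igkv16 member, had 9.93 and 9.54 in C1M5, 6.77 and 6.80 in C2M3, and 5.79 and 6.35 in C1M3. Ighv1-23 had 9.59 and 10.87 in C1M5 against 7.41 and 6.98 in C2M3, and Igkv4-59 had 14.30 and 14.79 against 11.36 and 11.70. The limma difference C2M3 minus C1M5 was -3.98 (SE 0.35; adjusted p 0.724) for Ighv1-15 and -2.95 (SE 0.28; adjusted p 0.724) for Igkv16-104.

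**Figure D3:**
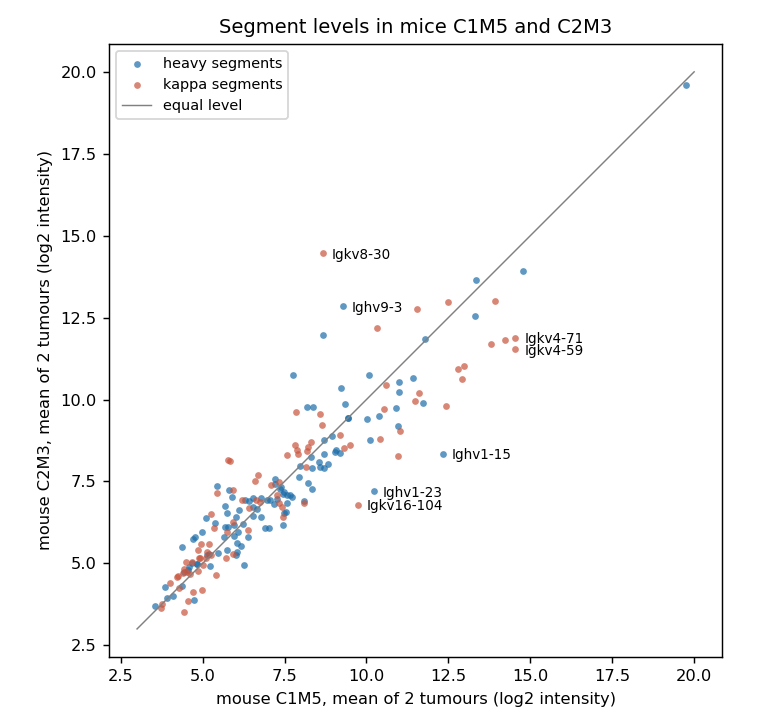
Mean log2 intensity of each segment over both tumours of mouse C1M5 (horizontal) and of mouse C2M3 (vertical), heavy in blue and kappa in red, with the line of equal level. Most points lie along the line, and the named segments are those whose tumours were separated by 2 log2 units or more, 2 above the line and 5 below it.

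Other segments were high in 1 tumour of a mouse. Ighv10-1 stood at 13.81 in the primary tumour of C2M3 and 10.15 in its metastatic tumour, while the other 4 tumours lay between 7.68 and 9.12. Ighv10-3, its family relative, stood at 11.93 and 9.58 in C2M3 and between 6.17 and 8.30 elsewhere. Ighv11-1 and Ighv11-2, of which the second is known from the B-1 cells of the body cavities that make natural antibody, had 10.96 and 10.52 in the primary tumour of C2M3, against 8.58 and 9.02 in its metastasis. They stood between 7.95 and 8.46 in C1M5 and between 4.97 and 5.30 in C1M3. These 4 segments were chosen after their values had been seen. For all of them the primary tumour of C2M3 was the highest of the 6.

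Metastatic and primary tumours were then compared, the question of the study's design. No segment passed the adjusted threshold: limma called 0 of 199 members and 0% of all genes, with 0.842 as the smallest adjusted p of a member. At an unadjusted p under 0.05, 6 members were higher in metastatic tumours (5 heavy and 1 kappa), a share of 3.02% against 2.88% of all genes, and 1 was lower, against 1.33%. With the mouse as a replicate block, which the donor label supports, these counts were 20 (11 heavy, 9 kappa; 2.96% of all genes) and 2 (1.97%), and the adjusted threshold still called 0, with a smallest adjusted p of 0.841. The count of higher members fell to 0 when the primary tumour of C1M3 or the metastatic tumour of C2M3 was left out, and rose to 23 when the metastatic tumour of C1M3 was. It was 2 without either tumour of C1M5, and without both tumours of a mouse it was 19 (C1M3), 2 (C1M5) and 3 (C2M3). With 1 tumour left out its mouse stands in only 1 group, so such a fit mixes tissue with mouse. All 3 metastatic tumours were above all 3 primary tumours for 9 segments, 6 heavy and 3 kappa (4.79% of all genes), and below them for 1, Ighv15-2 (2.84% of all genes). Without the block, the lower member was Ighv15-2 and the higher kappa member was Igkv5-37, both below background in every tumour. With dim genes filtered out, 5 heavy and 0 kappa members were higher at an unadjusted p under 0.05 by limma (2.682% of all genes kept). Lower members were then 0 (1.365%).

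The median difference, metastatic minus primary, was 0.05 log2 units for heavy and 0.33 for kappa segments, against 0.02 over all genes. The share with a positive difference was 54.0% of heavy and 74.4% of kappa segments, against 55.1% of all genes. The 85 alpha variable segments of the T cell receptor (Trav) had a median of 0.26 (83.5% positive), and the 21 beta segments (Trbv) 0.07 (66.7%). The olfactory and vomeronasal receptor genes had a median of 0.09 (66.0% positive). With centred arrays the median difference was -0.06 for heavy and 0.23 for kappa segments, against -0.09 over all genes. Leaving out the primary tumour of C1M3 gave -0.59 for heavy and -0.14 for kappa segments, and leaving out its metastatic tumour gave 0.80 and 1.12. The heavy median was -0.43 when the metastatic tumour of C1M5 was left out. With 1 tumour left out its mouse stood in only 1 group, so these medians take in differences between mice. Within mice the sign differed. Heavy segments had a median difference of 0.03 in C1M3, 0.64 in C1M5 and -0.18 in C2M3, with 57, 88 and 42 of 113 higher in the metastatic tumour. Kappa segments had -0.29, 0.90 and 0.41, with 34, 73 and 59 of 86 higher. Of all 30142 genes 10540, 15103 and 17607 were higher in the same order of mice. The heavy and kappa medians had opposite signs in C1M3 and in C2M3, and both were positive in C1M5. Over both chains 40 of 199 segments were higher in the metastatic tumour of all 3 mice (23 heavy, 17 kappa). In all 3 mice 11 were lower (9 heavy, 2 kappa). Of all 30142 genes 3341 were higher and 2605 lower in all 3 mice.

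The heavy segments with the largest difference among those higher in all 3 mice came mostly from family Ighv2. Ighv2-2 went from 5.54 to 7.84 in C1M3, from 7.06 to 11.10 in C1M5 and from 7.74 to 9.17 in C2M3, and its metastatic values were all above its primary values. The group difference was 2.59 (SE 1.03, and 0.62 with the mouse as a block). It did not pass in either fit (limma adjusted p 0.842 and 0.841). Other SEs are given without the block unless stated. Ighv2-4 went from 5.87 to 7.31 in C1M3, from 6.45 to 10.23 in C1M5 and from 7.16 to 8.65 in C2M3, a difference of 2.24 (SE 0.83). Ighv2-5 went from 7.92 to 9.48, from 7.94 to 10.75 and from 9.38 to 10.34 in the same order, a difference of 1.78 (SE 0.55; unadjusted p 0.0229). Neither had overlapping groups. Ighv2-6-8 (1.01, SE 0.31) and Ighv12-3 (1.01, SE 0.30) also had no overlap, with metastatic values of 6.12 to 6.83 and 7.06 to 8.14 against primary values of 5.20 to 6.04 and 6.66 to 6.74. Ighv12-3, like Ighv11-2, is known from B-1 cells. Ighv6-3 had a difference of 1.08 (SE 1.69, and 0.20 with the mouse as a block). Its groups overlapped (6.67, 11.39 and 9.14 against 7.67, 12.09 and 10.67). Within C1M3, C1M5 and C2M3 its difference was 1.01, 0.71 and 1.53. It was -0.12 when the primary tumour of C1M3 was left out, which left that mouse in the metastatic group only.

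Over the whole Ighv2 family, 8 segments, the median difference was 0.72 in C1M3, 1.66 in C1M5 and 0.82 in C2M3. The metastatic tumour was lower for 1 of the 8 in C1M3 (Ighv2-9-1, by 0.13 log2 units), for 1 in C1M5 (the pseudogene Ighv2-1) and for 0 in C2M3. This family was picked out after its values had been seen, and its segments are related in sequence, so these counts are a description. No Ighv2 segment passed the adjusted threshold of limma.

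Of the kappa segments higher in all 3 metastatic tumours, Igkv8-16 went from 4.57 to 5.78 in C1M3. It went from 7.54 to 9.64 in C1M5 and from 8.98 to 10.12 in C2M3, a difference of 1.48 (SE 1.69). With the mouse as a block the SE was 0.26 (limma adjusted p 0.841). Igkv6-14 had 5.71, 7.82 and 8.25 against 6.19, 9.45 and 10.21, and Igkv9-124 had 3.75, 6.68 and 6.29 against 4.65, 8.01 and 7.42. All of these groups overlapped, since the mice lay further apart than the tissues. For Igkv9-124 the difference of 1.12 had an SE of 1.24, and of 0.11 with the mouse as a block (limma adjusted p 0.841 with the block). Igkv8-34 had 7.48, 7.04 and 7.70 against 7.71, 8.62 and 9.50, a difference of 1.21 (SE 0.50) without overlap. Igkv4-90 and Igkv8-21 had positive differences in each mouse, the smallest of 0.01 and 0.13, both in C1M3, where Igkv4-90 was below background.

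Fewer segments had a negative difference in all 3 mice. Ighv3-5 had the largest such difference, -1.28 (SE 0.86), going from 5.01 to 4.52 in C1M3, from 7.94 to 5.65 in C1M5 and from 6.95 to 5.88 in C2M3. Ighv3-6 went from 5.29 to 5.18, from 10.65 to 9.54 and from 8.91 to 8.65. Groups overlapped for both. Ighv1-79, Ighv1-22, Ighv13-2 and Ighv8-13 had group differences between -0.41 and -0.32. The sign of each of these 4 and of Ighv3-6 turned when single tumours were left out, which left 1 mouse in only 1 group. The 2 kappa segments with a negative difference in all 3 mice, Igkv1-115 and Igkv4-92, were below background in every tumour.

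Family Igkv4 shows how the sign depended on the mouse. In C1M3 the median of its 25 segments was 1.35 log2 units lower in the metastatic than in the primary tumour, and 23 of them were lower. In C1M5 it was 1.09 higher with 3 lower, and in C2M3 0.65 higher with 4 lower. The largest negative differences in C1M3 were those of Igkv4-71 (-3.15) and Igkv4-63 (-3.06). Of the 2 segments that were not lower there, Igkv4-90 and Igkv4-58, neither was above background in C1M3. Without this family the kappa median was 0.04 in C1M3, 0.86 in C1M5 and 0.15 in C2M3. The 61 Ighv1 segments had medians of -0.02, 0.76 and -0.47, and 44 of them were lower in the metastatic tumour of C2M3. The 5 Igkv3 segments were all lower in the metastatic tumour of C1M3 (median -0.72) and all higher in that of C1M5 (2.35), with a median of 0.10 in C2M3. These differences rest on 1 tumour of each kind per mouse and were not tested.

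**Figure D4:**
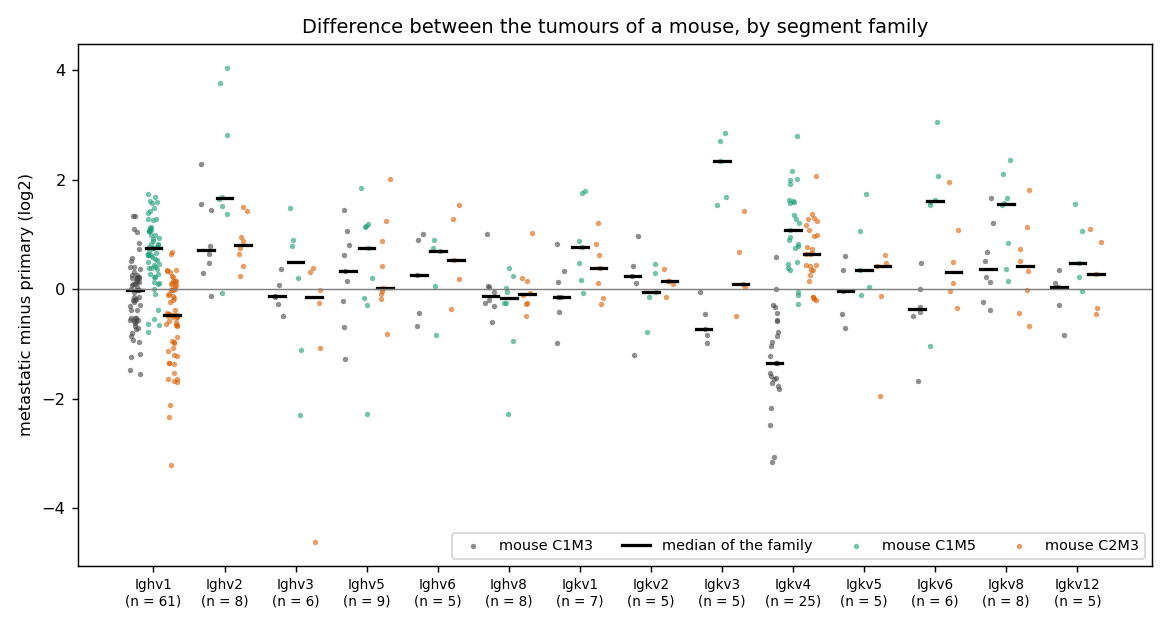
Metastatic minus primary log2 intensity within each mouse (grey C1M3, green C1M5, orange C2M3) for the segments of each family with at least 5 members, with the family median as a black bar and a line at 0. Ighv2 has positive medians in all 3 mice (0.72, 1.66 and 0.82), whereas Igkv4 is at -1.35 in C1M3 and at 1.09 and 0.65 in the others.

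Ighm, Ighg2b and Jchain, like most segments, were lowest in mouse C1M3. Ighm, the IgM constant region, stood at 8.61 and 9.75 in the primary and metastatic tumour of C1M3, 16.45 and 16.81 in C1M5, and 16.78 and 16.68 in C2M3. Ighg2b, the IgG2b constant region, stood at 5.17 and 5.67 in C1M3, 10.53 and 11.64 in C1M5, and 12.19 and 10.88 in C2M3. Jchain, which links IgM and IgA into polymers, stood at 5.39 and 5.15, 9.22 and 10.35, and 10.95 and 11.13 in the same order. C1M3 did not overlap with the other mice for any of them. The difference C1M5 minus C1M3 was 7.45 (SE 0.36; limma adjusted p 0.318) for Ighm and 4.52 (SE 0.41; limma adjusted p 0.456) for Jchain. Ighg1 had 5.08 and 5.76 in C1M3 and 6.14 or more elsewhere, and Ighe lay between 4.13 and 4.19, below background in all tumours. Only 5 of the 13 listed constant region and joining chain genes lay on a probe set with 1 symbol. No value is given for Igkc, Ighd, Igha, Ighg2c, Ighg3, Iglc1, Iglc2 or Iglv1. Of the heavy diversity genes 4 were measured and 1 was above background in any tumour. Igkj3, a kappa joining segment, stood at 4.93 and 5.91 in C1M3, 5.66 and 7.29 in C1M5, and 6.76 and 5.89 in C2M3, with overlap between mice.

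Markers of the cells that make antibody were read against the same background limit. Of the 17 measured B cell genes 6 were above background in at least 1 tumour, and the list's mean lay at 4.54 and 4.60 in C1M3, 4.81 and 4.91 in C1M5, and 5.06 and 4.94 in C2M3. Among the defining genes, Ms4a1 (CD20) and Cd79b stood below background in all 6 tumours, and so did the B cell factor Pax5. Cd79a, a signalling chain of the B cell receptor, was above it only in C2M3 (5.20 and 5.25). Of the other detected B cell genes, Blnk was above background in all 6 tumours (5.21 to 6.71). Bank1 and Ebf1 were above it in 5 tumours each, and Fcmr and Fcrla in 2 each. Of the 14 plasma cell genes 11 were above background somewhere, with means of 5.89 and 6.09 in C1M3, 6.48 and 6.63 in C1M5, and 6.55 and 6.49 in C2M3. Mzb1, a chaperone of antibody secretion, stood at 4.07 and 4.68 in C1M3, 5.87 and 6.71 in C1M5, and 5.88 and 6.43 in C2M3, below background in C1M3. Xbp1, the factor of the secretory programme, stood at 10.89 and 11.33, 12.69 and 12.52, and 11.96 and 12.16. Sdc1 (CD138) is also made by epithelium and lay between 6.45 and 7.93, and Pou2af1, a B cell coactivator, between 5.10 and 5.67. Irf4 stood at 4.76 and 4.87 in C1M3, 5.94 and 5.41 in C1M5, and 6.58 and 5.29 in C2M3. Derl3, Creld2, Fkbp11, Tent5c and Tnfrsf13b were above background in all 6 tumours, and Slamf7 in 5. The plasma cell genes Tnfrsf17, Prdm1 and Eaf2 were below background in all tumours.

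At an unadjusted p under 0.05 by limma, 3 of 5 constant and joining chain genes, 3 of 17 B cell genes and 5 of 14 plasma cell genes were higher in C1M5 than in C1M3, where 3.50% of all genes were, and 3, 5 and 5 were higher in C2M3, where 2.74% of all genes were. None of them passed the adjusted threshold there or in the metastatic against primary comparison. The mean of the macrophage genes was 6.35 and 7.97 in C1M3, 8.29 and 8.21 in C1M5, and 8.81 and 8.76 in C2M3. On means over both tumours of a mouse, all 11 of these genes were higher in C1M5 and in C2M3 than in C1M3. The medians were 0.955 and 1.415 log2 units, and the C1M3 means take in its primary tumour, the lowest of the 6 (6.35). Segment medians were low in both C1M3 tumours, and a part of macrophage content in this was not tested. The variable segments of the T cell receptor were dim: 30 of 85 Trav and 1 of 21 Trbv genes were above background in at least 1 tumour. Their medians stood at 4.26 to 4.79 and 3.89 to 4.10 with no drop in C1M3. Of 9 other T cell genes 5 were above background in at least 1 tumour. Against C1M3, 8 of the 9 were higher in C2M3 (median 0.32) and 5 in C1M5 (median 0.07). At an unadjusted p under 0.05 by limma, 3 were higher in C2M3 (2.74% of all genes) and 0 in C1M5 (3.50%). The part of B-lineage cell content in the segment levels was not tested.

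**Figure D5:**
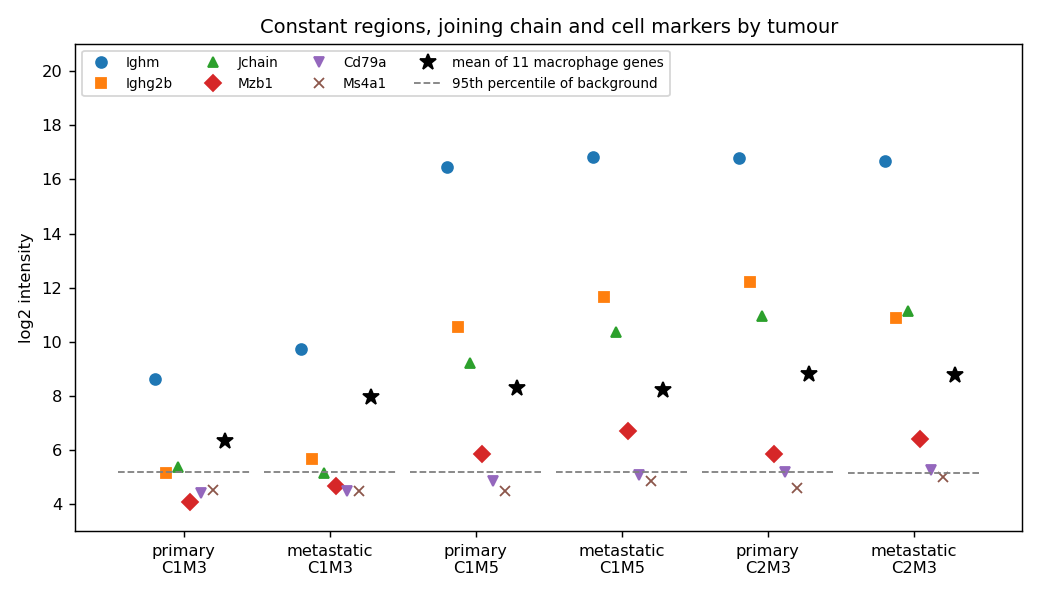
Log2 intensity of Ighm, Ighg2b, Jchain, Mzb1, Cd79a and Ms4a1 and the mean of 11 macrophage genes (stars) in each tumour, with the 95th percentile of the background probe sets as a dashed line. Ighm is at 8.61 and 9.75 in C1M3 and at 16.45 or above elsewhere. The macrophage mean is 6.35 and 7.97 in C1M3 and between 8.21 and 8.81 in the other mice.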

How the data were processed

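Total RNA of fresh frozen tumours was hybridised to Affymetrix mouse arrays, 1 per tumour. The authors deposited log2 intensities for each probe set, between 2.12 and 19.89, and RMA and Transcriptome Analysis Console are named per the submitters' processing notes, without versions. RMA corrects background, makes the distributions of the arrays alike and summarises probes, so a rise of many genes at once is reduced. Groups follow the tissue label and mice the donor label. Of 72688 probe sets, 30604 had 1 gene symbol and 2146 had several, which were not named. Of the probe sets with 1 symbol, 827 had their symbol updated through a RefSeq gene table (assembly GRCm38.p6), which held all 199 segments. Per gene the probe set with the highest mean was kept. No genome build is named for the array annotation and coordinates are left out. Segment sequences and promoters were not analysed here.

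Differences were tested with limma 3.58.1 in R 4.3.3, with tissue as the only term (two-sided, Benjamini-Hochberg adjustment over 30142 genes, threshold 0.05). The tumours of a mouse come from the same animal, so their pairing follows from the donor label. Their deviations from the group means correlated with r = -0.05 in C1M3, 0.35 in C1M5 and 0.07 in C2M3, against -0.30 to 0.13 across mice. The alternatives were the mouse as a block, centred arrays, a filter on dim genes, other background limits, array weights and leaving out arrays or mice. The comparison of mice was added after the data had been seen. The members and lists were chosen with earlier results of these data known. Segments were named by the largest differences with 1 sign in every mouse and a group mean above the background limit (6 per chain and direction), the 6 highest means and ranges per chain, and the highest mean of each family with 5 or more members. The script was tested on simulated data made for 30142 genes: of genes changed between tissues by 1, 2 and 4 log2 units it recovered 46.3%, 71.6% and 92.4%, with 7 false calls. For C2M3 against C1M5 it recovered 0%, 52.2% and 81.8%, with 3 false calls. The simulated noise was drawn for each gene apart and held no mouse differences. Changed genes were drawn from all genes above background on 3 or more arrays. The segments had a median range of 3.04 log2 units, against 0.503 over all genes, so these shares do not apply to them.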

Additional observations from a re-analysis of the deposited data

Results flagged for a closer look

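Outside the 199 segments, 23 probe sets carried several gene symbols of which at least 1 was a heavy or kappa variable segment, and the comparisons above do not use them. Of these, 21 were above the highest background probe set on 1 or more arrays and 8 on all 6. Their medians were 5.56 and 5.83 in the primary and metastatic tumour of C1M3, 7.23 and 7.79 in C1M5, while C2M3 had 8.78 and 8.73. Both C1M3 medians were again the lowest. Which of the symbols gave the signal was not tested.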

How the results depend on the processing

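Depth is not defined for arrays, and signal over background is the limit for the 100 segments below background in both C1M3 tumours. Calls at an adjusted p in metastatic against primary tumours stayed at 0 under every alternative run. The count of members higher in metastatic tumours at an unadjusted p (6) was 20 with the mouse as a replicate block and lay between 0 and 23 with tumours or mice left out. The count of lower members (1) was 2 with the block, 0 with dim genes filtered out, and 0 to 2 with tumours or mice left out. The median difference of heavy segments (0.05) lay between -0.59 and 0.80, and that of kappa segments (0.33) between -0.14 and 1.12, with tumours left out. With 1 tumour left out its mouse stood in only 1 group. Above background on 1 or more arrays were 106 heavy and 75 kappa segments, and 34 and 25 on all 6 arrays. Against the controls named as negative 43 and 38 passed on 1 or more arrays, where 19.7% of all genes did.

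Between mice, members called in C1M5 against C1M3 (0) were 2 without the tissue term and 19 with centred arrays, and in C2M3 against C1M3 (0) they were 1 and 3. Members higher in C2M3 than in C1M3 at an unadjusted p (123) lay between 73 and 122 with tumours left out. Members higher in C2M3 than in C1M5 (16) lay between 11 and 27, and lower members (16) between 7 and 27, with 26 for centred arrays and 25 for array weights. With tumours left out the difference metastatic minus primary changed sign for Ighv6-3 (-0.12 to 2.32), Ighv3-6 (-1.99 to 0.81), Ighv1-79 (-1.19 to 0.30), Ighv1-22 (-1.50 to 0.57), Ighv13-2 (-0.76 to 0.11) and Ighv8-13 (-1.16 to 0.66). These fits left 1 mouse in only 1 group, and within every mouse each of these segments kept 1 sign. The causes were not tested. Of the other values recomputed for single segments and related genes, 669 kept their direction and side of the threshold and 12 passed an adjusted p of 0.05 that they had missed.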
